A study of Mus musculus with 4 samples.

Results

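Brown fat stores the fuel it burns as triglyceride. The mRNAs of 10 genes of triglyceride synthesis and glycerol 3-phosphate metabolism were compared between Sox4f/f mice and mice labelled Sox4-MKO. The 10 genes were chosen by name from a total of 55387 rows listed for each library. Pck1 and Gpd1 serve the supply of the glycerol 3-phosphate backbone, and Gpd2 its oxidation. Gpam, Gpat3 and Gpat4 serve the first acylation, Agpat2 the second, and Lpin1 the removal of the phosphate. Dgat1 and Dgat2 serve the last acylation. All 10 were found, each on a single row, and all 10 passed the limit on low values, an averaged FPKM above 1 in at least 1 genotype. FPKM counts fragments relative to transcript length and library depth, so levels can be compared between genes.

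Triglyceride is made by adding fatty acids one after another to glycerol 3-phosphate. A GPAT enzyme adds the first and gives lysophosphatidic acid, an AGPAT enzyme adds the next and gives phosphatidic acid, a lipin removes the phosphate and gives diacylglycerol, and a DGAT enzyme adds the last. Adipocytes take the backbone from glucose, from pyruvate and lactate through PCK1 (glyceroneogenesis), or from glycerol through glycerol kinase. Brown fat is known for running synthesis and breakdown of triglyceride side by side, and cold exposure raises both.

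The tissue was brown adipose tissue of male mice aged 15 weeks on a C57BL/6 background, from 2 Sox4f/f mice and 2 Sox4-MKO littermates, with 1 library per mouse. The Sox4f/f mice are the controls. Both genotypes carried the floxed Sox4 allele, although the labels call the controls WT, and the Sox4-MKO mice also carried a Cre recombinase driven by Myf5, a gene active in precursors of both brown adipocytes and skeletal muscle. The study asked how Sox4 affects the development and heat production of brown fat. The labels name brown adipocytes as the cell type, but the RNA came from whole tissue, in which fewer cells of a type and less RNA per cell cannot be told apart.

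Sox4, a transcription factor gene and the target of the deletion (minus strand, chromosome 13, 28948919 to 28953713), was at 1.98 and 1.06 FPKM in the controls and at 0.98 and 3.06 FPKM in Sox4-MKO. Its log2 fold change was 0.20 (standard error, SE, 0.43, limma adjusted p = 0.843). Its exons overlap those of Gm26735 on the opposite strand over 54.6% of their length. These values rest on few fragments, an estimated 128 and 62 in the controls and 60 and 240 in Sox4-MKO. Counting alone gives an error of 12.91% at the fewest. The genotypes overlapped, so the values show neither less nor more Sox4 mRNA in Sox4-MKO. Every direction given here follows the labels. Markers of all adipocytes were abundant, with a summed 8759 to 11799 FPKM over 7 genes, a sum that overlapped between genotypes and was mostly Fabp4 (5416 to 7518 FPKM). Of the 7, Plin1, Pparg and Lipe were lower without overlap, Lipe alone past the unadjusted limit of 0.05 in limma. The other 4 overlapped. Over all genes tested, 29.6% were lower and 21.7% higher without overlap. The 8 brown adipocyte markers summed to 8211 and 7984 FPKM in the controls and to 4186 and 4827 FPKM in Sox4-MKO, and 7 of them were lower without overlap. Of the 8, Ucp1, Cidea, Dio2 and Ppargc1a are among the genes the study displayed from these libraries, so the list was not an independent choice. The 10 skeletal muscle markers summed to 209 and 769 FPKM in the controls against 14866 and 2580 FPKM in Sox4-MKO, with 9 of 10 higher without overlap. All 6 macrophage markers were higher without overlap, from a sum of 67.8 and 94.4 FPKM to 152 and 134 FPKM. The 4 endothelial markers summed to 91.6 to 148 FPKM with 1 of 4 lower without overlap, while no hepatocyte marker exceeded 1.08 FPKM and no B cell marker exceeded 0.868 FPKM. Marker values are given beside some of the results that follow, but the part of these shifts in them was not tested.

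**Figure D1:**
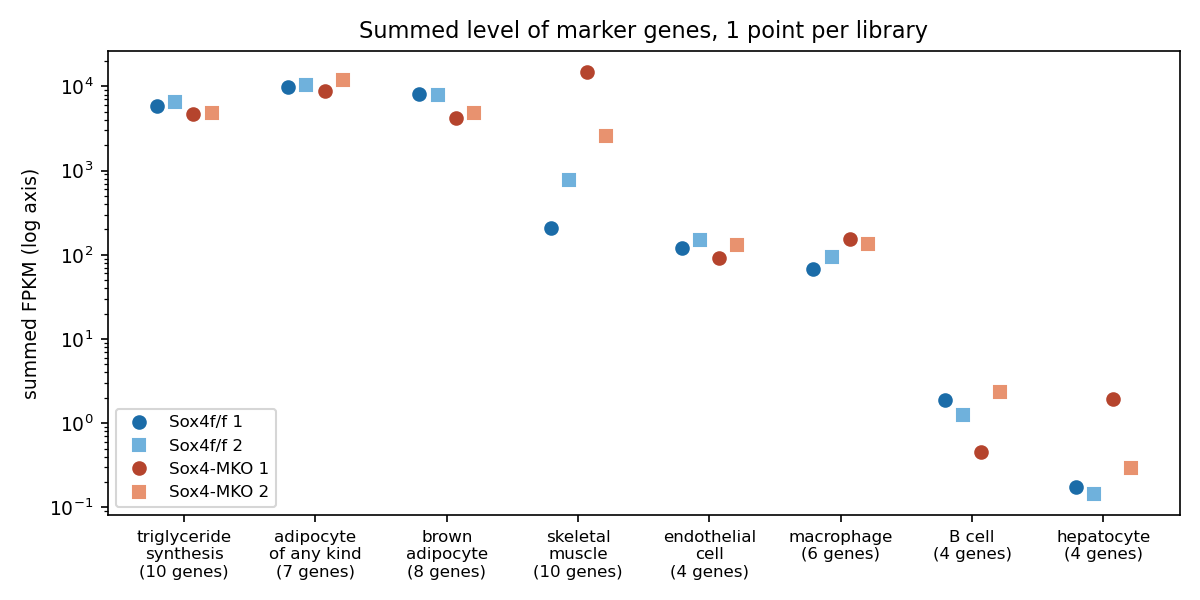
Summed FPKM (log axis) of the 10 triglyceride synthesis genes and of marker genes for 7 cell types, with 1 point per library, circles for mouse 1 and squares for mouse 2 of each genotype. The muscle sum was highest in Sox4-MKO library 1 at 14866 FPKM, whereas the sum of the 10 genes ranged only from 4699 to 6505 FPKM.

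In the libraries labelled Sox4-MKO, Pck1 and Gpd1, which supply glycerol 3-phosphate, and Gpat4 of the first acylation were lower at the unadjusted limit, and the other 7 genes did not pass it. Pck1, Gpd1, Gpat4, Dgat1 and Dgat2 lay below both Sox4f/f libraries in both Sox4-MKO libraries, with mean changes from -35.7% to -18.3%, and Agpat2, Lpin1 and Gpat3 lay above them. Gpd2 and Gpam overlapped. On log2(FPKM + 1), limma gave an unadjusted p under 0.05, the limit the study used together with the FPKM limit, for 3 of the 10 genes, all lower: Pck1, Gpd1 and Gpat4. The same call was made for 8.28% of the 12877 genes tested in the lower direction and for 7.95% in the higher direction, where 0 of the 10 were called. Both Sox4-MKO libraries were below both Sox4f/f libraries at 5 of the 10 genes, against 29.6% of all genes, and above them at 3 of the 10, against 21.7%. The median log2 fold change was -0.28 over the 10 genes and -0.05 over all genes. After Benjamini-Hochberg adjustment over all genes none of the 10, and none of the 12877, was under 0.05. The adjusted p by limma of the 10 ran from 0.236 to 0.805, and the 1066 lower and 1024 higher calls over all genes are those at the unadjusted limit. With 2 mice against 2, no exact permutation test of a single value can give a two-sided p below 0.333.

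**Figure D2:**
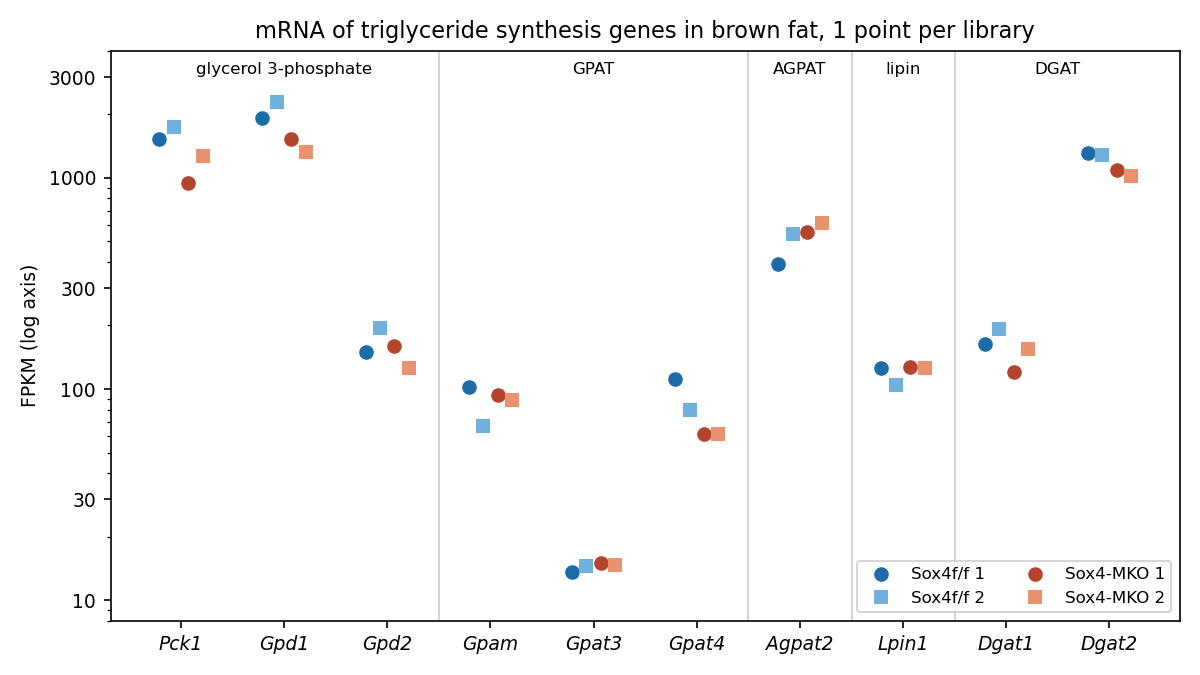
FPKM (log axis) of the 10 genes in the 4 libraries, ordered by step of the pathway, with 1 point per library. Gpd1, Pck1 and Dgat2 lay between 951 and 2284 FPKM in every library, Gpat3 between 13.6 and 15.0 FPKM, and the Sox4-MKO points of Pck1, Gpd1, Gpat4, Dgat1 and Dgat2 lay below both Sox4f/f points.

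By level the 10 genes spanned a wide range that was much the same in each library. Gpd1 and Pck1 led in both Sox4f/f libraries, followed by Dgat2 and Agpat2, and in Sox4-MKO library 1 Dgat2 stood above Pck1. Among all genes tested Gpd1 held rank 12 to 25 by FPKM over the 4 libraries, Pck1 rank 24 to 54, Dgat2 rank 38 to 48 and Agpat2 rank 86 to 201. Gpd2, Dgat1, Lpin1, Gpam and Gpat4 lay between 61.5 and 194 FPKM. In Sox4f/f the values of Dgat1 and Gpd2 overlapped with each other and lay above Lpin1, Gpat4 and Gpam. Of these, Gpat4 overlapped with Lpin1 and with Gpam, while Lpin1 lay above Gpam. In Sox4-MKO the values of Gpd2, Dgat1 and Lpin1 overlapped and lay above Gpam, which lay above Gpat4. Gpat3 was lowest in every library, at rank 4312 to 4861. Gpam and Gpat4 were the only pair among the 10 genes with one order in both Sox4f/f libraries and the opposite order in both Sox4-MKO libraries. The 10 genes together made up 1.01% and 1.19% of all FPKM in the controls and 0.949% and 1.02% in Sox4-MKO, and these shares overlapped.

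Pck1 encodes the cytosolic phosphoenolpyruvate carboxykinase, the enzyme of glyceroneogenesis in fat and of gluconeogenesis in liver. It lies on the plus strand of chromosome 2 (173153048 to 173159273, GRCm38). Pck1 was at 1524 and 1746 FPKM in the control libraries and at 951 and 1264 FPKM in the Sox4-MKO libraries. Both Sox4-MKO values were below both Sox4f/f values, and the lowest was in library 1, which also had the most muscle mRNA. The part of muscle mRNA in this was not tested. The mean was 1635 ± 157 FPKM in the controls and 1107 ± 222 FPKM in Sox4-MKO (SD, n = 2 each), a change of -32.3%. The log2 fold change was -0.57 (SE 0.19, limma unadjusted p = 0.0323 and adjusted p = 0.267). Without Sox4-MKO library 1 it was -0.37 and without Sox4-MKO library 2 it was -0.78. Without Sox4f/f library 1 or Sox4f/f library 2 it was -0.67 or -0.47. The call was lost in most of these fits. In the leave-one-out fits the lone library of a genotype is assumed to vary as the other genotype does.

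The Pck1 promoter is shown because Pck1 had the largest difference in the lower direction among the genes with a RefSeq promoter. It is also the gene of the set for which hormone-driven transcription through the promoter is the textbook case. The 250 bases before the RefSeq start (GRCm38.p6, chr2:173152823-173153072, plus strand) read as follows, with the ACGTCA core of a cyclic AMP response element in capitals.
Pck1: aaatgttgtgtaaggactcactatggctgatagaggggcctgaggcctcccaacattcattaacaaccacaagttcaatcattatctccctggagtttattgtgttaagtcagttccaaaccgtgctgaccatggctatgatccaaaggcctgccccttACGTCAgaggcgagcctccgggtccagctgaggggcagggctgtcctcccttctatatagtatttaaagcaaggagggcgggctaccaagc
ACGTCA began 91 bases before the start on the strand shown. It occurred on either strand in 7.51% of the 32851 mouse promoter windows of 300 bases (250 before and 50 after the start) and in 3 of the 8 windows that RefSeq lists for 6 of the 10 genes, those of Pck1, Gpat3 and 1 of the windows of Gpam.

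Gpd1 encodes the cytosolic glycerol 3-phosphate dehydrogenase, which reduces dihydroxyacetone phosphate to the backbone. It lies on the plus strand of chromosome 15 (99717515 to 99725005). Gpd1 was at 1929 and 2284 FPKM in the controls and at 1520 and 1323 FPKM in Sox4-MKO. The genotypes did not overlap, and the lower Sox4-MKO value was in library 2, which had less muscle mRNA than library 1. The part of muscle mRNA in this was not tested. The mean was 2106 ± 251 FPKM against 1421 ± 140 FPKM (SD, n = 2 each), a change of -32.5%. On the log2 scale this was -0.57 (SE 0.16, limma unadjusted p = 0.0180 and adjusted p = 0.236). Without Sox4-MKO library 1 it was -0.67 with an unadjusted p by limma of 0.0235. Without Sox4-MKO library 2, Sox4f/f library 1 or Sox4f/f library 2 it was -0.47, -0.69 or -0.44, and the unadjusted p by limma was 0.0550, 0.0625 or 0.145. An antisense transcript, Gm16537, shares 384 exon bases with Gpd1 but had only 1.60 to 4.32 FPKM.

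Gpd2 encodes the mitochondrial enzyme that oxidises glycerol 3-phosphate and with Gpd1 forms a shuttle that carries electrons into mitochondria. It lies on the plus strand of chromosome 2 (57237635 to 57370719). Gpd2 was at 151 and 194 FPKM in the controls and at 161 and 125 FPKM in Sox4-MKO. The genotypes overlapped, and the log2 fold change of -0.27 (SE 0.20, limma adjusted p = 0.530) was close to its error. The Gpd1 to Gpd2 ratio within a library is the same whatever factor the library is multiplied by. On the deposited values it was 12.8 and 11.7 in Sox4f/f and 9.46 and 10.5 in Sox4-MKO. The ratio was lower in both Sox4-MKO libraries, with an exact permutation p of 0.333 (two-sided, n = 2 each), the smallest this design can give. Quantile normalization, which does more than multiply, brought the log2 fold changes of Gpd1 and Gpd2 together at -0.28 and -0.24.

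Among the GPAT genes the shares of Gpat4 and Gpam differed between genotypes without overlap, while the Gpat3 share and the sum overlapped. Gpat4, the enzyme of the endoplasmic reticulum formerly called Agpat6, lies on the minus strand of chromosome 8 (23171265 to 23208346) and was at 111 and 79.8 FPKM in the controls and at 61.5 FPKM in both Sox4-MKO libraries. The Sox4-MKO values were nearly identical, and the muscle sums of these libraries were 14866 and 2580 FPKM. The part of muscle mRNA in the Gpat4 values was not tested. The mean was 95.6 ± 22.3 FPKM against 61.5 ± 0.012 FPKM (SD, n = 2 each), a change of -35.7% and the largest of the 10 genes. In log2 terms the change was -0.61 (SE 0.19, limma unadjusted p = 0.0262 and adjusted p = 0.254). The size depended on the Sox4f/f libraries, at -0.37 without library 1 and -0.85 without library 2. It stayed at -0.61 without either Sox4-MKO library. The call was lost in most of these fits.

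Gpam, the GPAT of the outer mitochondrial membrane (minus strand, chromosome 19, 55067268 to 55127238), was at 103 and 66.8 FPKM in the controls and at 93.8 and 88.9 FPKM in Sox4-MKO. Both Sox4-MKO values fell between the Sox4f/f values, with a log2 fold change of 0.14 (SE 0.23, limma adjusted p = 0.784) that was -0.17 without Sox4f/f library 2. Gpat3, the other enzyme of the endoplasmic reticulum, known from white fat, lies on the plus strand of chromosome 5 (100845713 to 100899102) and was at 13.6 and 14.6 FPKM in the controls and at 15.0 and 14.7 FPKM in Sox4-MKO. The values were close together, and Gpat3 had the fewest fragments of the 10 genes, an estimated 541 in Sox4f/f library 2, for which counting alone gives an error of 4.30%. Its log2 fold change was 0.07 (SE 0.13, limma adjusted p = 0.805) and -0.01 when libraries were scaled to a common median.

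Within each library, Gpat4 made up 48.9% and 49.5% of the summed FPKM of the GPAT genes in Sox4f/f and 36.1% and 37.2% in Sox4-MKO. Gpam made up 45.1% and 41.4% in Sox4f/f and 55.1% and 53.9% in Sox4-MKO. Gpat4 was thus the leading GPAT mRNA in both Sox4f/f libraries and Gpam in both Sox4-MKO libraries. The Gpat4 share was 49.2% ± 0.41 against 36.7% ± 0.79 and the Gpam share 43.3% ± 2.61 against 54.5% ± 0.86 (SD, n = 2 each), each with an exact permutation p of 0.333. The differences in the Gpat4 share ranged from -13.1 to -12.0 percentage points when a library was left out, and those in the Gpam share from 9.35 to 13.0 percentage points. The Gpat3 share, 5.96% and 9.04% against 8.80% and 8.90%, overlapped. Gpat2, known from testis, was at 0 in 3 libraries and at 0.058 FPKM in the controls library 2. The sum of the GPAT genes was 228 and 161 FPKM in the controls and 170 and 165 FPKM in Sox4-MKO, which overlapped.

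Agpat2 encodes the AGPAT whose loss causes congenital generalised lipodystrophy. It lies on the minus strand of chromosome 2 (26593057 to 26604417). Agpat2 was at 393 and 543 FPKM in the controls and at 555 and 610 FPKM in Sox4-MKO. Both Sox4-MKO values were above both Sox4f/f values, though Sox4-MKO library 1 and Sox4f/f library 2 were close. The mean was 468 ± 106 FPKM against 583 ± 39.2 FPKM (SD, n = 2 each), a difference of 24.6% that did not pass the unadjusted limit. The log2 fold change of 0.33 (SE 0.19, limma unadjusted p = 0.149 and adjusted p = 0.447) was 0.10 without Sox4f/f library 1 and 0.57 without Sox4f/f library 2. Agpat2 shares 64 exon bases, 3.0% of its exons, with Egfl7 on the opposite strand, which was at 124 FPKM in both control libraries and at 78.5 and 72.7 FPKM in Sox4-MKO. Whether fragments were counted by strand is not stated in the sources used here.

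Agpat2 made up 55.8% and 62.9% of the summed FPKM of Agpat1 to Agpat5 in Sox4f/f and 74.5% and 70.0% in Sox4-MKO. The mean share was 59.4% ± 5.01 against 72.3% ± 3.18 (SD, n = 2 each, exact permutation p = 0.333). Agpat1 contributed 13.4% and 11.9% against 9.60% and 8.99%, and Agpat3 29.5% and 24.0% against 14.4% and 19.8%. Agpat1, the widely expressed AGPAT of the endoplasmic reticulum, was at 94.5 and 102 FPKM in the controls and at 71.5 and 78.3 FPKM in Sox4-MKO, with a log2 fold change of -0.39 (SE 0.12, limma unadjusted p = 0.0253 and adjusted p = 0.253). Agpat3 was at 208 and 207 FPKM against 107 and 173 FPKM, without overlap (log2 fold change -0.61, SE 0.25, limma unadjusted p = 0.0631). Agpat4 and Agpat5 were below 9 FPKM in every library. The AGPAT sum itself overlapped, at 704 and 863 FPKM against 745 and 872 FPKM.

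**Figure D3:**
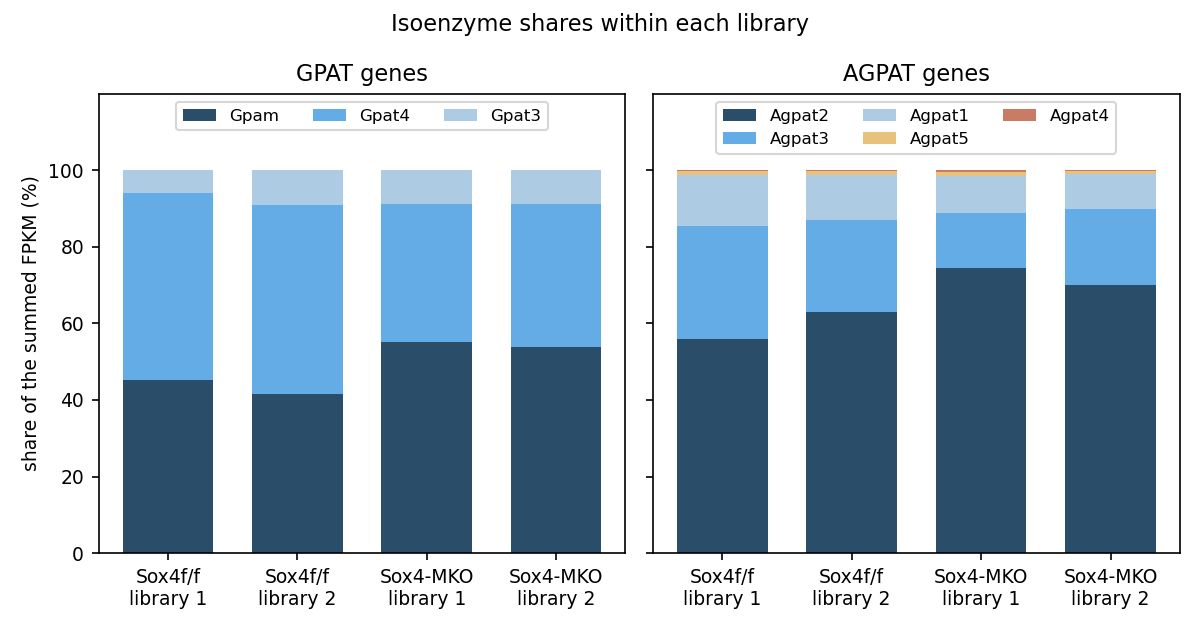
Share of the summed FPKM (%) of each GPAT gene and each AGPAT gene within each of the 4 libraries, as stacked bars from 0 to 100%. Gpat4 took 48.9% and 49.5% in Sox4f/f and 36.1% and 37.2% in Sox4-MKO, and Agpat2 took 55.8% and 62.9% against 74.5% and 70.0%; Gpat2 (at most 0.0362%) is not drawn.

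The Agpat2 promoter is shown beside that of Pck1 because these genes had the largest differences in the higher and lower direction among those with a RefSeq promoter. The 250 bases before the start (GRCm38.p6, chr2:26604418-26604667, minus strand, read along the gene) hold none of the motifs searched.
Agpat2: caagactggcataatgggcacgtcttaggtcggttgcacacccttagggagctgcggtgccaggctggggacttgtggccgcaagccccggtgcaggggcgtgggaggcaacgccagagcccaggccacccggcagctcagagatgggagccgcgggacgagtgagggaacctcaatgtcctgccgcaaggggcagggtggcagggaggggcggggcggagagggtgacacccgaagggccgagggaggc
The 300-base window of Agpat2 had a GC content of 72.0% and that of Pck1 52.0%, against a median of 52.7% over all windows. Besides ACGTCA, the letters searched on both strands those of common promoter motifs. The TATA box TATAAA was in 13.6% of all windows. The letters CCAAT of the CCAAT box were in 37.4% of them and the E box CACGTG in 7.15%. The nuclear receptor half-site AGGTCA was in 16.3%. A SOX core of the short form AACAAT was in 10.7%. A SOX core of the longer form AACAAAG was in 5.85%. The SOX4 site that the study mutated near Ebf2 reads AACAAGT and was in 2.92%. The EBF core CCCNNGGG was in 13.7% of all windows. AGGTCA was found in the window of Lpin1, 74 bases before the start, and in 1 window of Gpam, 196 bases before it. The CCAAT box was found on the reverse strand of the other Gpam window, and the EBF core at 2 overlapping positions in 1 window of Gpd2. The TATA box, the E box and both SOX cores, as spelt here, were in none of the 8 windows. AACAAGT, added to the search after the other results were seen, was in 1 of them, a Gpd2 window, 65 bases before the start.

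Lpin1 encodes the main phosphatidate phosphatase of adipocytes, which also acts in the nucleus as a coregulator of transcription. It lies on the minus strand of chromosome 12 (16535669 to 16610966). Lpin1 was at 125 and 104 FPKM in the controls and at 128 and 125 FPKM in Sox4-MKO. The Sox4-MKO values were higher without overlap, but Sox4f/f library 1 and Sox4-MKO library 2 were nearly equal. The log2 fold change was 0.15 (SE 0.14, limma adjusted p = 0.608). Lpin1 made up 93.8% and 93.1% of the lipin mRNA in Sox4f/f and 94.4% in both Sox4-MKO libraries, so Lpin2 and Lpin3 contributed little in either genotype. Neither Lpin2 nor Lpin3 exceeded 5.85 FPKM.

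Dgat2 and Dgat1 encode unrelated enzymes for the last step. DGAT2 is known to use newly made fatty acids and DGAT1 to re-esterify fatty acids released by lipolysis. Dgat2 (minus strand, chromosome 7, 99153658 to 99182719) was at 1312 and 1281 FPKM in the controls and at 1094 and 1023 FPKM in Sox4-MKO. The libraries of a genotype lay close together and the genotypes apart, with a mean of 1296 ± 21.8 FPKM against 1059 ± 49.8 FPKM (SD, n = 2 each), a difference of -18.3%. The log2 fold change was -0.29 (SE 0.12, limma unadjusted p = 0.0611 and adjusted p = 0.327). It ranged from -0.34 to -0.25 when a library was left out and was -0.08 when libraries were scaled to an equal sum of FPKM. Without Sox4-MKO library 1 its unadjusted p by limma was 0.0470.

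Dgat1 (minus strand, chromosome 15, 76502015 to 76511953) was at 164 and 192 FPKM in the controls and at 121 and 156 FPKM in Sox4-MKO. The genotypes did not overlap, but Sox4-MKO library 2 came close to Sox4f/f library 1. The mean was 178 ± 19.9 FPKM against 138 ± 24.5 FPKM (SD, n = 2 each), with a log2 fold change of -0.37 (SE 0.17, limma unadjusted p = 0.0930 and adjusted p = 0.373). Without Sox4-MKO library 1 it was -0.19, and without Sox4-MKO library 2 it was -0.55 with an unadjusted p by limma of 0.0296. The Dgat2 to Dgat1 ratio was 8.01 and 6.67 in Sox4f/f and 9.04 and 6.58 in Sox4-MKO. The Sox4-MKO values enclosed the Sox4f/f values, and the ratio overlapped (exact permutation p = 1, n = 2 each). The DGAT sum was 1476 and 1473 FPKM in the controls and 1215 and 1179 FPKM in Sox4-MKO.

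**Figure D4:**
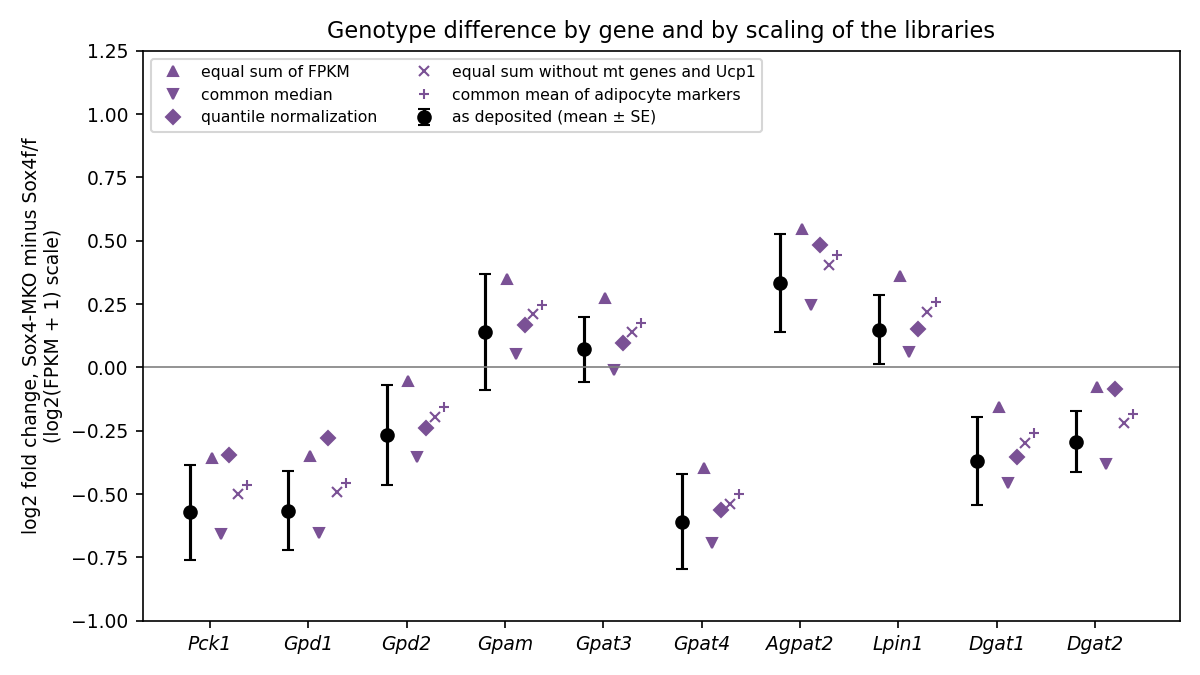
Log2 fold change (Sox4-MKO minus Sox4f/f, log2(FPKM + 1) scale) of the 10 genes, with black points and bars for the values as deposited ± standard error from limma and purple marks for 5 other scalings of the libraries. The sign was kept under every scaling except for Gpat3, which was at -0.01 with a common median, and Gpat4 ranged from -0.69 to -0.40.

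The sum of FPKM was itself lower in the Sox4-MKO libraries, at 495145 and 472062 against 578011 and 544564, so the size of every log2 fold change depended on the scaling. With an equal sum the log2 fold change was -0.36 for Pck1, -0.35 for Gpd1 and -0.40 for Gpat4, none with an unadjusted p under 0.05 by limma, and Lpin1 became the sole call at 0.36 (unadjusted p = 0.0319 by limma). That scaling moved the median of all genes from -0.05 to 0.13, and the calls over all genes from 1066 lower and 1024 higher to 330 lower and 1877 higher. Measured against the mean log2 level of the 7 adipocyte markers, Pck1 differed by -0.46, Gpd1 by -0.46, Gpat4 by -0.51, Dgat1 by -0.26 and Agpat2 by 0.44. With a common marker mean, limma gave an unadjusted p of 0.0862 for Pck1, 0.139 for Gpd1 and 0.106 for Gpat4. It was 0.305 for Dgat1 and 0.135 for Agpat2, so none of these 5 genes passed the unadjusted limit. These 5 genes did not overlap on the marker scale, but the share of all genes without overlap on it is not given here. On that scale Pck1 stood 0.88 and 1.10 above the markers in Sox4f/f and 0.48 and 0.56 above them in Sox4-MKO. Dgat2 overlapped there, at 0.66 and 0.65 against 0.69 and 0.26, and so did Gpat3, Gpam, Gpd2 and Lpin1.

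Of 20 further genes of the pathway, 19 were listed and 16 passed the limit on low values. Of the 16, 2 were lower and 4 higher at an unadjusted p under 0.05 by limma, against 8.28% and 7.95% of all genes tested, with a median log2 fold change of 0.04 over the list. Besides Agpat1, the lower gene was Aqp7, the glycerol channel of adipocytes, at 118 and 126 FPKM in the controls and at 76.7 and 81.4 FPKM in Sox4-MKO (log2 fold change -0.62, SE 0.11, limma adjusted p = 0.196). The genotypes were well apart for Aqp7. Gk, glycerol kinase, was at 66.0 and 63.5 FPKM against 15.2 and 50.7 FPKM, so that most of its log2 fold change of -1.18 (SE 0.56, limma unadjusted p = 0.0940) lay in Sox4-MKO library 1.

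Pcx, pyruvate carboxylase, which makes the oxaloacetate that PCK1 uses, was higher where Pck1 was lower. It was at 318 and 322 FPKM in the controls and at 476 and 485 FPKM in Sox4-MKO, with a log2 fold change of 0.59 (SE 0.11, limma unadjusted p = 0.0035 and adjusted p = 0.196). Pck2, the mitochondrial form of the carboxykinase, overlapped at 16.2 and 12.2 FPKM against 15.5 and 12.2 FPKM. Mogat1, which acylates monoacylglycerol and so bypasses glycerol 3-phosphate, was at 6.01 and 7.49 FPKM against 15.8 and 15.7 FPKM. Its log2 fold change was 1.12 (SE 0.16, limma unadjusted p = 0.00129 and adjusted p = 0.196), but Mogat1 is among the genes the study displayed from these libraries, so it was not an independent choice. Bscl2, which encodes the lipid droplet protein seipin, was at 139 and 123 FPKM against 174 and 185 FPKM (log2 fold change 0.45, SE 0.12, limma adjusted p = 0.232).

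Fitm1, a lipid droplet gene known from skeletal muscle, was at 0.272 and 3.97 FPKM in the controls and at 46.8 and 16.2 FPKM in Sox4-MKO. Its 4 values stood in the same order as the summed muscle markers, lowest in Sox4f/f library 1 and highest in Sox4-MKO library 1. In log2 terms it differed by 3.51 (SE 0.82, limma adjusted p = 0.214). Tpi1 encodes a glycolytic enzyme that acts on dihydroxyacetone phosphate and is abundant in muscle. Tpi1 was likewise highest in Sox4-MKO library 1, at 402 FPKM against 192 to 226 FPKM in the others. Of the 10 genes only Gpat3 stood in the order of the muscle sum, within its narrow range of 13.6 to 15.0 FPKM.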

How the data were processed

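RNA sequencing of brown fat from 4 mice was used, grouped by the genotype in the labels. The authors deposited 1 FPKM value per gene symbol and library, and the submitters' processing notes name Cufflinks 2.1.1, Cuffdiff and mm10. The aligner and the annotation are not given in the sources used here. The labels describe a column extraction and a stranded library, whereas the methods describe TRIzol and TruSeq. From steps in the lowest values, depth was roughly 12100000 to 16300000 fragments per library, and the errors drawn from it cover counting only. The values are not counts, so log2(FPKM + 1) was modelled in limma 3.58.1 (R 4.3.3) by genotype alone, with a trended prior. The model covered the 12877 genes whose averaged FPKM exceeded 1 in either genotype and gave two-sided p-values, after the code was tested on simulated data. That scale understates the change of low genes. The study used p under 0.05 and named no test for this step. Isoenzyme ratios within a library were compared by exact permutation tests. Positions come from GENCODE M21 (GRCm38) by gene symbol, and promoters from RefSeq (GRCm38.p6), which was matched for 6 of the 10 genes. Named are the 10 genes, Sox4, and those of the other pathway genes that had an unadjusted p under 0.05 or entered a ratio. Gk, Tpi1 and Pck2 were named after their values were seen. The genes and lists were chosen with earlier results of these data known. Alternatives changed the pseudocount, the FPKM limit, the scaling, the prior, the replicate block and the libraries included. The scaling to adipocyte markers was added after the data were seen.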

Additional observations from a re-analysis of the deposited data

How the results depend on the processing

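Over 17 alternatives, the log2 fold changes of the 10 genes kept direction and side of the unadjusted limit in 138 values, lost the call in 24, gained one in 6 and turned in 2. The count of the 10 genes lower at an unadjusted p under 0.05 by limma was 3. It was 4, with Dgat2 added, at an averaged FPKM above 5 and with a common median. It was 1 with no limit on FPKM and with quantile normalization (Gpat4 both times), 1 without moderation (Dgat2, with Pck1, Gpd1 and Gpat4 all lost), 0 with an equal sum of FPKM and with a common adipocyte marker mean, and 0 to 2 without a library. The count higher was 0, and 1 with an equal sum. The replicate block gave 2 lower (Pck1 and Gpat4, with Gpd1 at an unadjusted p by limma of 0.0576). Same-numbered libraries share only a number (correlation of deviations -0.01). For the other pathway genes the lower count was 1 instead of 2 with an equal sum, quantile normalization, an equal sum without mitochondrially encoded genes and Ucp1, a prior without a trend or adipocyte marker scaling, and 1 to 4 without a library. Over all genes the lower count was 330 with an equal sum, 1686 with a common median, 198 with adipocyte marker scaling and 404 to 1012 without a library. The higher count was 1877 with an equal sum, 553 without moderation and 445 to 1559 without a library. The median log2 fold change of the 10 genes was -0.066 with an equal sum, and that of all genes 0.13 with an equal sum, -0.13 with a common median, 0.011 without mitochondrially encoded genes and Ucp1 and 0.046 with adipocyte marker scaling. Gpat3 turned to -0.0098 with a common median. Without a library, Gpam ranged from -0.17 to 0.44, the difference in the Dgat2 to Dgat1 ratio from -0.76 to 1.71 and that in the Gpat3 share from -0.19 to 2.89 percentage points. The cause was not tested. There were 2 libraries per genotype, and counting error was at most 4.30% for the 10 genes.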
